A study of Mus musculus with 5 samples.

Results

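Genes that were listed with many isoforms are described here in cultured mouse neurons. All rows of a gene were kept where its symbol, with the trailing mark of an assembled isoform removed, had 10 or more rows in the isoform table. This gave 803 of 15154 genes (5.30%) and 10917 of 50356 isoforms (21.7%). The number of isoforms, not any level, chose them. A further 254 genes had 9 rows and stayed outside, and 183 genes had exactly 10 and stayed inside. Most of these isoforms were built by the assembler from the same reads that were then used to estimate their level, so the number of isoforms is itself a product of these libraries and of the assembly.

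RNA-Seq libraries were compared from 3 cultures of dorsal root ganglion (DRG) neurons and 2 cultures of cerebellar granule neurons (CGNs). All came from C57bl/6j mice at postnatal day 8, and no mutant allele was named for them. DRG neurons are the sensory neurons of the peripheral nervous system. They were kept for 16 days with 3 rounds of the antimitotic FuDR, and each replicate held the ganglia of 2 mice. CGNs are small excitatory neurons of the cerebellum and were kept for 16 hours, with 1 mouse for each replicate. Both cell types were grown on laminin, and the paper describes a coating of poly-d-lysine with laminin for the CGN dishes. Cell type, time in culture and culture medium therefore cannot be told apart. Levels are in FPKM, fragments scaled to exon length and to the mapped reads of the library, and tests measure only the spread between these 5 cultures.

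A gene makes several isoforms when its transcripts start or end at different sites or when exons are included in one transcript and skipped in another. Alternative splicing is especially common in neurons, where channels, adhesion receptors, motor proteins and cytoskeletal linkers carry cassette exons, some as short as a few codons, that RNA-binding proteins include or skip. A reference isoform is one listed in the combined gene annotation, with which the authors compared the transcripts after an assembly run without annotation. An assembled isoform, marked in the table by a suffix such as _j3, was joined from the reads of these libraries and classed as a new isoform of a known locus.

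The short cassette exons below show what can set such isoforms apart. They are exons of at most 27 bases from the GENCODE M1 annotation on NCBIM37 (mm9), each carried by some coding transcripts of its gene and skipped by others, and they were chosen as examples from genes named further on. Capitals mark the exon, and lower case the 20 intron bases before it and the 10 after it, on the coding strand.
Cacna1b, chr2:24498373-24498378 (minus strand): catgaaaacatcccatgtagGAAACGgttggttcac
Cacna1b, chr2:24512231-24512242 (minus strand): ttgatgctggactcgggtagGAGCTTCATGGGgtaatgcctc
Kif1a, chr1:94962129-94962155 (minus strand): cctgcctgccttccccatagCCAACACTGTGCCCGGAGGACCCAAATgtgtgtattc
Kif21a, chr15:90795406-90795426 (minus strand): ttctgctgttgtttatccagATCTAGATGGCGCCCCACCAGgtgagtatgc
Lphn2, chr3:148483415-148483432 (minus strand): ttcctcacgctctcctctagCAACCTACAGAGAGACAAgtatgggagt
Lphn3, chr5:82221386-82221403 (plus strand): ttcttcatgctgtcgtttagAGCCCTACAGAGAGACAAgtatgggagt
The 6-base exon of Cacna1b, the pore subunit of the N-type calcium channel, was carried by 2 annotated transcripts and skipped by 4, and its 12-base exon was carried by 4 and skipped by 2. Lphn2 and Lphn3 encode latrophilins, adhesion receptors of the synapse, and their 18-base exons held the same base at 15 of 18 positions. Of 634 genes with 10 or more isoforms that could be matched to the annotation, 120 (18.9%) had a coding exon of at most 27 bases that other transcripts skip. The same held for 188 of 2166 genes (8.68%) with 5 to 9 isoforms and for 176 of 4866 genes (3.62%) with 2 to 4. The median of the most exons in any one transcript was 21, 13 and 9 in these classes, so the genes also differed in how many exons they had to offer. The isoform table gives a span and a level for each isoform but no exons, so no level can be assigned to any of these exons.

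The median gene had 12 isoforms and the longest lists had 65. Loci on a single chromosome spanned a median of 80.7 kb for these genes, 48.0 kb for genes with 5 to 9 isoforms, 31.4 kb for those with 2 to 4 and 16.1 kb for those with 1. Of the 10917 isoforms, 9867 (90.4%) were assembled and 1050 were reference, and 276 genes had no reference isoform under their symbol. The longest list, U6 with 65 rows, and SNORA17 with 47, 7SK with 31, U1 with 26 and 5S_rRNA with 21 are families of small RNA repeats on many chromosomes rather than isoforms of 1 gene, and 182 of their 190 rows were listed at 0 in every library. Of the other long lists, BC066100 had 45 isoforms, Tnxb, an extracellular matrix tenascin, had 44, C4a of the complement system had 42, Plec1, the cytolinker plectin, had 37, and Crem, a cAMP-responsive transcription factor, had 32.

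Locus is not the same as gene in this table. For 306 of the 803 genes (38.1%) the locus carried another symbol as well, so that part of their isoforms can belong to that symbol. The other symbol can be a neighbouring gene or only a clone name, as mKIAA0358 for Madd and mKIAA1506 for Mll3. The count does not separate these. Tnxb and C4a were both given chr17:34797428-34987151 (mm9), which they shared with C4b, Dom3z, Skiv2l and Stk19, and C4a and C4b are near-identical copies. Thtpa shared its locus with G2ad, Jph4 and Zfhx2, Abcc8 with Kcnj11, Cd63 with Bloc1s1 and Rdh5, and Ptbp1 with BC005764 and Prtn3. Values of these genes are uncertain to that extent.

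Each library spread the level of a gene over a few of its many isoforms. A share was computed for the 754 genes with a summed level of at least 50 FPKM in every library, the level that the study took as reliable; 49 genes fell below it, 12 of them listed at 0 in a library. The top isoform held a median of 41.0, 40.8 and 40.0% of the summed level in DRG1, DRG2 and DRG3, and 38.4 and 38.4% in CGN1 and CGN2, where an even split would give 8.33%. The median number of isoforms that held more than 10% was 3 in all 5 libraries, with a range over genes of 1 to 8. The effective number of isoforms, the inverse of the summed squares of the shares, had a median of 3.47, 3.47 and 3.63 in DRG libraries and 3.83 and 3.79 in CGN libraries. A single isoform held more than 50% in 228, 210 and 241 of the 754 genes in DRG libraries and in 192 and 202 in CGN libraries. Genes with 5 to 9 isoforms had median top shares of 54.3, 53.0 and 53.4% in DRG libraries and 53.4 and 52.5% in CGN libraries. The number of rows sets the lowest top share a gene can have, so the classes differ on this measure by construction.

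**Figure D1:**
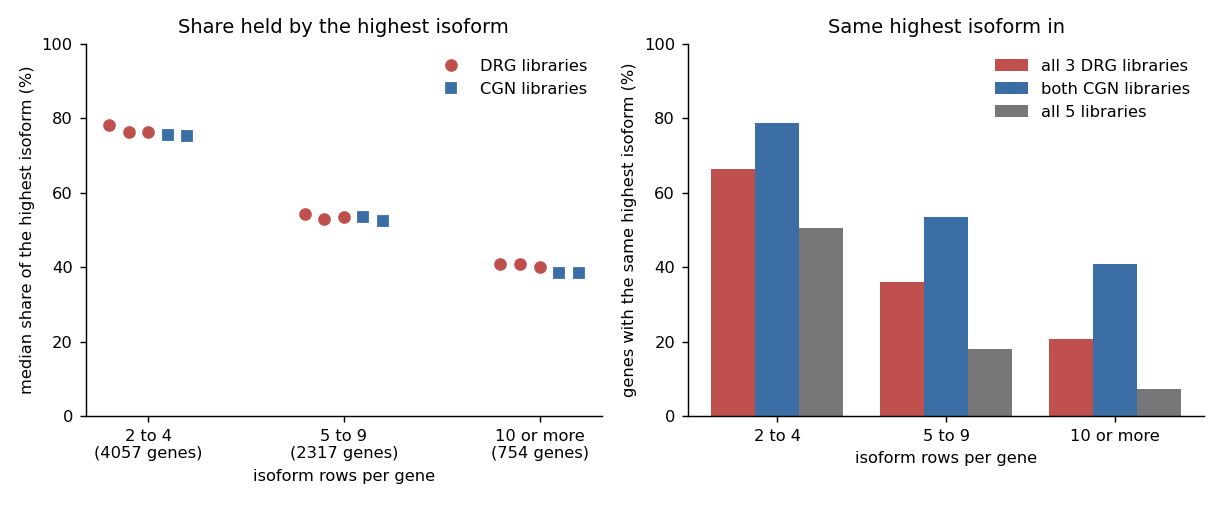
Left, median share of the summed level held by the top isoform (percent), a point for each of the 3 DRG and 2 CGN libraries; right, percent of genes with the same top isoform in all 3 DRG libraries, both CGN libraries and all 5, both for genes with 2 to 4, 5 to 9 and 10 or more isoforms. Genes with 10 or more isoforms have a median top share of 40.0 to 41.0% in DRG libraries and 38.4% in both CGN libraries, and 20.7% of them keep their top isoform across the DRG libraries and 40.8% across the CGN libraries.

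At one end stood genes where a single isoform held nearly all of the level. The 5 highest mean top shares were those of Tle2, a corepressor, Ptbp1, a splicing repressor, 4833439L19Rik, Cd63, a tetraspanin, and Ppil2. Tle2 had a top share of 99.4, 94.0 and 96.1% in DRG1, DRG2 and DRG3, and 92.0 and 95.5% in CGN1 and CGN2. Ptbp1 had 100.0, 94.2 and 91.4% in DRG libraries and 95.4 and 92.6% in CGN libraries. All 5 of these genes kept the same top isoform in all 5 libraries, and all 5 lie on a locus shared with another symbol. At the other end, Ank3, which encodes ankyrin-G of the axon initial segment, had 25 isoforms, and its top share was 16.4, 16.1 and 16.6% in DRG libraries and 16.8 and 18.8% in CGN libraries. Pde4dip, myomegalin of the centrosome and Golgi, had 23.2, 27.3 and 22.5% in DRG libraries and 14.9 and 17.3% in CGN libraries.

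Which isoform was on top seldom repeated from culture to culture. Of the 754 genes, 56 (7.43%) had the same top isoform in all 5 libraries, 156 (20.7%) in all 3 DRG libraries and 308 (40.8%) in both CGN libraries. Genes with 5 to 9 isoforms kept it in 18.04, 36.0 and 53.6% of cases, and genes with 2 to 4 in 50.5, 66.4 and 78.9%, for all 5, the 3 DRG and the 2 CGN libraries. In 65 genes every library had a different isoform on top. A constant top isoform in each cell type was seen in 85 genes, and in 29 of these it differed between the cell types. The matching share among genes with fewer isoforms was not computed. Among genes that shared their locus with another symbol, 39 of 278 (14.0%) kept 1 top isoform throughout, against 17 of 476 (3.57%) with a locus of their own, although the median number of isoforms was 12 in both.

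An isoform clearly present in one replicate was often near 0 in another of the same cell type. Isoforms were taken that reached 50 FPKM with a lower confidence bound above 0 in a library. Of these, 36.2, 34.9 and 35.0% were under 1 FPKM in the other library of the pair for DRG1 with DRG2, DRG1 with DRG3 and DRG2 with DRG3, and 1595 of 5128 (31.1%) for CGN1 with CGN2. For genes with 1 isoform this share was 7.78 to 8.27% in DRG pairs and 6.47% in the CGN pair. Across isoforms of the genes with 10 or more, Pearson's r of log2 levels was 0.518 to 0.534 between DRG replicates and 0.592 between CGN replicates, and 0.320 to 0.364 between cell types. Across the same genes after summing their isoforms, it was 0.881 to 0.896, 0.926 and 0.488 to 0.575. These are descriptions across features that share libraries and models, and isoforms of a gene are not independent.

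**Figure D2:**
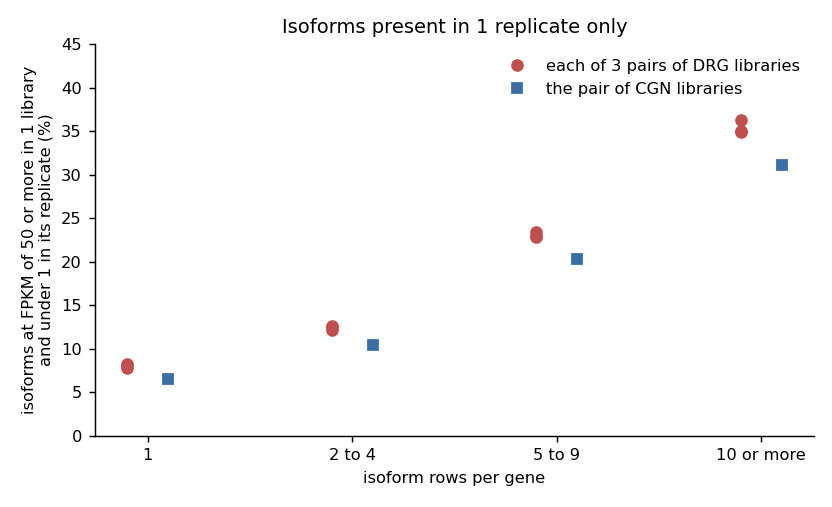
Percent of isoforms with at least 50 FPKM and a lower confidence bound above 0 in one replicate that were under 1 FPKM in the other replicate of the pair, by number of isoforms of the gene, for 3 pairs of DRG libraries and 1 pair of CGN libraries. The share rises with the number of isoforms in both cell types, to 34.9 to 36.2% in DRG pairs and 31.1% in the CGN pair for genes with 10 or more.

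Kif21a, a kinesin of axons, shows the size of these swings. Its 25 isoforms lie at chr15:90763730-90880293 (mm9) and summed to 30469.6, 30965 and 36523 FPKM in DRG1, DRG2 and DRG3, and to 2176 and 3826 FPKM in CGN1 and CGN2. The sums were alike among the DRG cultures, while the isoforms that made them up were not. The reference isoform had 11792 FPKM in DRG3 and under 1 FPKM in DRG1 and DRG2, with under 1 and 105 FPKM in CGN1 and CGN2. Kif21a_j3 had 9079, under 1 and 895 FPKM in DRG1, DRG2 and DRG3, and 876 and under 1 FPKM in CGN1 and CGN2. Golgb1, which encodes the Golgi tether giantin and also has 25 isoforms, stood at the steady end. Its isoform Golgb1_j11 was on top in every library, with 58.7, 65.8 and 54.7% in DRG libraries and 59.2 and 63.9% in CGN libraries. Chd2, a chromatin remodeller with 20 isoforms, had even top shares of 49.8, 48.2 and 51.6% in DRG libraries and 51.1 and 50.9% in CGN libraries. That evenness hid a switch, since its top isoform was Chd2_j8 in the 3 DRG libraries and in CGN2, and Chd2_j9 in CGN1. Chd2_j9 was under 1 FPKM in the other 4 libraries.

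**Figure D3:**
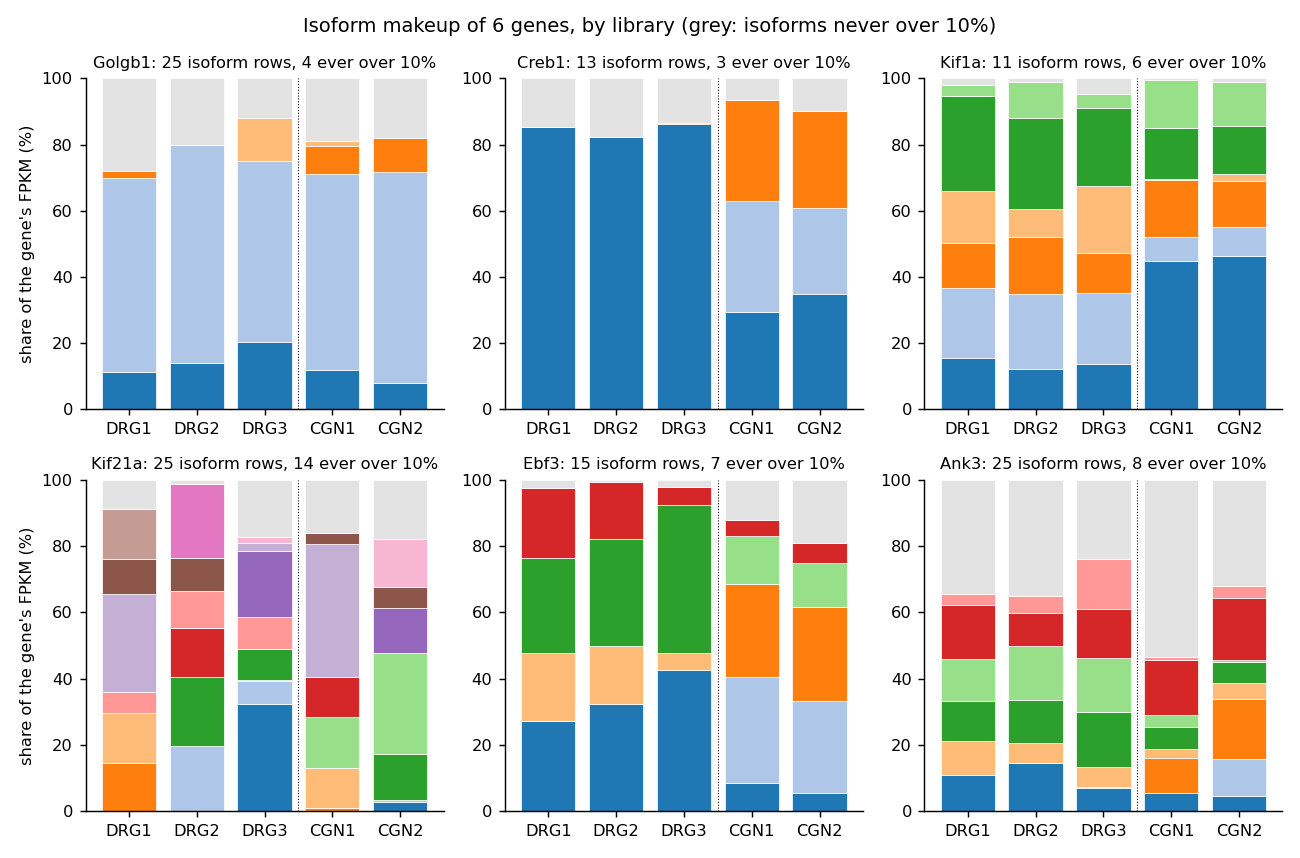
Share of the summed level (percent) held by each isoform that reaches 10% in a library, with the rest in grey, for 6 genes in DRG1 to DRG3 and CGN1 to CGN2; the genes were picked after their values were seen, to show makeups that repeat, that differ between cell types and that do not repeat. Creb1 has a single isoform at 82.4 to 86.3% in DRG libraries and a top share of 33.6 to 34.8% in CGN libraries, while Kif21a is made up differently in every library.

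Neither the distance between libraries nor the share of the top isoform set these genes apart from the background when cell types were compared. That distance was taken as the part of the summed level that would have to change isoform. It had a median over genes of 55.1% between DRG replicates, 41.7% between CGN replicates and 59.8% between cell types. In 77 of 754 genes (10.2%) all 6 pairs between cell types were farther apart than all 4 pairs within them, and the share was 12.2% among all 7128 genes with 2 or more isoforms. For the top isoform share, limma called 0 of the 754 genes, and 0% of the 7128. At an unadjusted p under 0.05 there were 98 genes (12.997%), 57 with a higher and 41 with a lower top share in DRG neurons, against 14.9% of all genes tested. The smallest adjusted p was 0.167. The median standard error of a difference was 7.40 percentage points. For the share of each isoform, 0 of 3234 isoforms were called, 0% as in the whole table, and 627 (19.4%) had an unadjusted p under 0.05, against 18.7%.

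The largest differences without overlap of the groups are given here as values that did not pass the adjusted threshold. Creb1 encodes a transcription factor that answers cAMP and neuronal activity, and its 13 isoforms lie at chr1:64579413-64651074. Its summed level was 8013, 7999.7 and 9598 FPKM in DRG1, DRG2 and DRG3, and 5346 and 8837 FPKM in CGN1 and CGN2, and these ranges overlapped. Its top share was 85.4, 82.4 and 86.3% in DRG libraries and 33.6 and 34.8% in CGN libraries, a difference of 50.5 ± 6.91 percentage points (SE, adjusted p = 0.17). In DRG neurons most of the level was in Creb1_j2, while CGNs split it over that isoform and 2 more. Creb1_j2 had 6841, 6588 and 8284 FPKM in DRG libraries and 1565 and 3078 FPKM in CGN libraries. Creb1_j3 had 1.62, 1.41 and 2.42 FPKM in DRG libraries and 1796 and 2285 FPKM in CGN libraries. Creb1_j8 had 0.520, 0.420 and 4.21 FPKM in DRG libraries and 1639 and 2617 FPKM in CGN libraries. On the level of isoforms these differences passed: Creb1_j2 was higher in DRG neurons by a log2 fold change of 1.69 ± 0.38 (SE, adjusted p = 0.037), and Creb1_j3 was lower, at -5.32 ± 0.68 (SE, adjusted p = 0.0085).

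Thtpa, thiamine triphosphatase, had a top share of 97.4, 95.8 and 97.3% in DRG libraries and 37.3 and 46.9% in CGN libraries, a difference of 54.7 ± 7.82 percentage points (SE, adjusted p = 0.17). Its top isoform was the reference one in DRG1, DRG2, DRG3 and CGN2, and Thtpa_j1 in CGN1. Triobp, a binding protein of Trio and actin, had 92.8, 94.5 and 50.5% in DRG libraries and 29.7 and 30.4% in CGN libraries, and DRG3 stood well below the other DRG libraries. Lower top shares in DRG neurons were led by Mll3, a histone methyltransferase, with 33.8, 33.6 and 29.1% in DRG libraries and 96.4 and 81.7% in CGN libraries. Its sums were low, 212, 422 and 102 FPKM in DRG libraries and 632 and 1148 FPKM in CGN libraries. Bbx, an HMG-box factor, had 12.3, 13.6 and 18.8% in DRG libraries and 93.3 and 33.1% in CGN libraries, and Ampd3, an AMP deaminase, had 35.2, 48.9 and 45.9% in DRG libraries and 94.8 and 86.6% in CGN libraries.

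Assembled isoforms carried most of the level. Together they held 85.3, 87.1 and 85.9% of the summed level of the genes with 10 or more isoforms in DRG libraries, and 87.8 and 87.0% in CGN libraries. In the 501 genes with both kinds, the reference share had a median of 11.2, 9.12 and 9.34% in DRG libraries and 7.50 and 8.35% in CGN libraries, close to the 10% of rows that were reference in the median gene. The top isoform was a reference one in 22.0, 20.8 and 21.0% of these genes in DRG libraries and in 17.4 and 18.8% in CGN libraries. In 4829 other genes with both kinds, the median reference share was 59.0, 53.7 and 55.7% in DRG libraries and 50.6 and 50.7% in CGN libraries, where reference isoforms made up 33.3% of rows. The reference share was under 1% in 165, 178 and 162 of the 501 genes in DRG libraries and in 175 and 171 in CGN libraries.

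**Figure D4:**
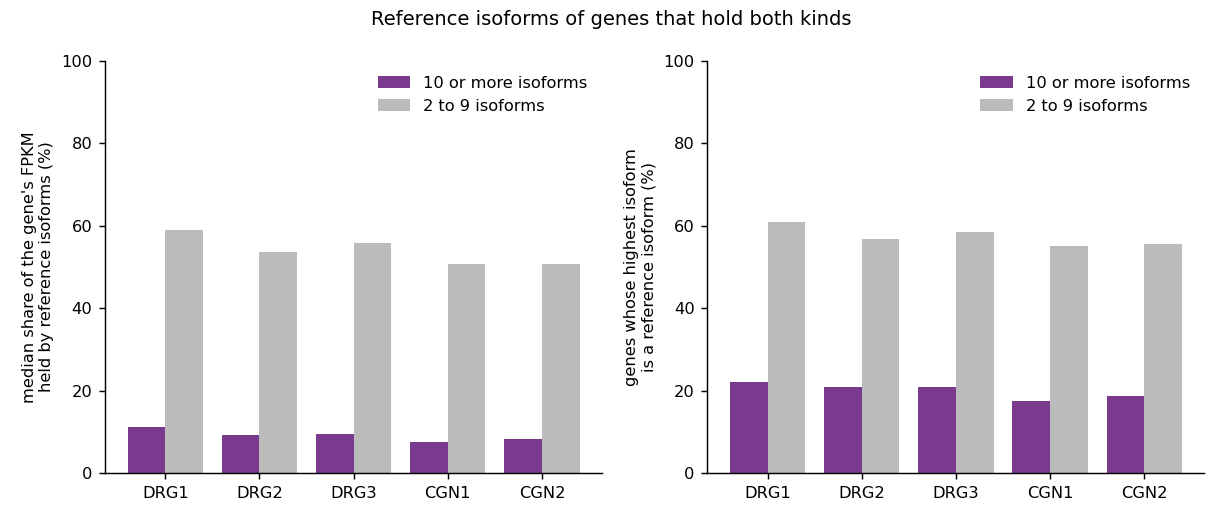
Bars for each library of the median share of a gene's summed level held by reference isoforms (left, percent) and of the percent of genes whose top isoform is a reference one (right), for the 501 genes with 10 or more isoforms and the 4829 genes with 2 to 9 that hold both kinds. The median share of the genes with 10 or more isoforms lies at 9.12 to 11.2% in DRG libraries and at 7.50 to 8.35% in CGN libraries, below that of the other genes in every library.

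The reference share was called by limma in 0 of the 501 genes, and in 0% of the 5330 genes tested. At an unadjusted p under 0.05 there were 65 genes (12.97%), 32 higher and 33 lower in DRG neurons, against 17.1% of all. The smallest adjusted p was 0.051, and it belonged to Ebf3. Leaving out CGN1 gave 15 calls (2.98%), against 2.51% of all genes, and leaving out CGN2 gave 19 (3.78%), against 3.81%, with the remaining CGN library assumed to vary like the DRG ones. Arfgef2, an exchange factor for ARF GTPases of the Golgi and endosomes, had the largest difference. Its reference isoform had 2354, 1989.5 and 1460.1 FPKM in DRG libraries and was under 1 FPKM in both CGN libraries. Its share of the gene was 84.3, 69.3 and 60.7% in DRG libraries and 0.0% in both CGN libraries, a difference of 71.4 ± 10.7 percentage points (SE, adjusted p = 0.074). The locus is joined to Cse1l and Stau1. Ltbp4, a matrix protein that binds latent TGF-beta, went the other way, with 0.0, 2.4 and 0.1% in DRG libraries and 44.0 and 59.9% in CGN libraries, a difference of -51.1 ± 6.36 percentage points (SE, adjusted p = 0.063). Without CGN1, and again without CGN2, Ltbp4 and Thtpa passed the threshold. Spata13, a guanine nucleotide exchange factor, had 65.2, 80.3 and 55.6% in DRG libraries and 0.2 and 1.7% in CGN libraries. Mtus1, a microtubule-associated tumour suppressor, had 14.0, 36.6 and 49.4% in DRG libraries and 96.0 and 87.8% in CGN libraries, and Mphosph9 had 34.7, 16.7 and 11.7% in DRG libraries and 80.6 and 66.4% in CGN libraries.

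The summed level of a gene repeated well between cultures and differed between cell types in many genes. In bulk RNA, fewer cells of a type and less RNA per cell cannot be told apart. Levels were tested with limma on log2(FPKM + 50), so fold changes of low genes are understated. Of the 803 genes 800 could be tested; 134 were higher (16.75%) and 100 lower (12.5%) in DRG neurons. Of all 13275 genes tested 37.7% were called, 28.4% higher and 9.22% lower, so fewer of the genes with 10 or more isoforms were called higher. Their median log2 fold change was -0.00, where that of all genes was 0.59. This split depends on scaling: with quantile normalization, which brings the median of all genes to 0.02, 98 were higher (12.25%) and 302 lower (37.75%), against 22.4 and 21.1% of all genes. It also depends on the CGN library. Without CGN1, with the same genes tested, 55 were higher (6.88%) and 58 lower (7.25%), against 11.9 and 6.5% of all genes. Without CGN2, 153 were higher (19.1%) and 47 lower (5.88%), against 29.0 and 5.53% of all genes.

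**Figure D5:**
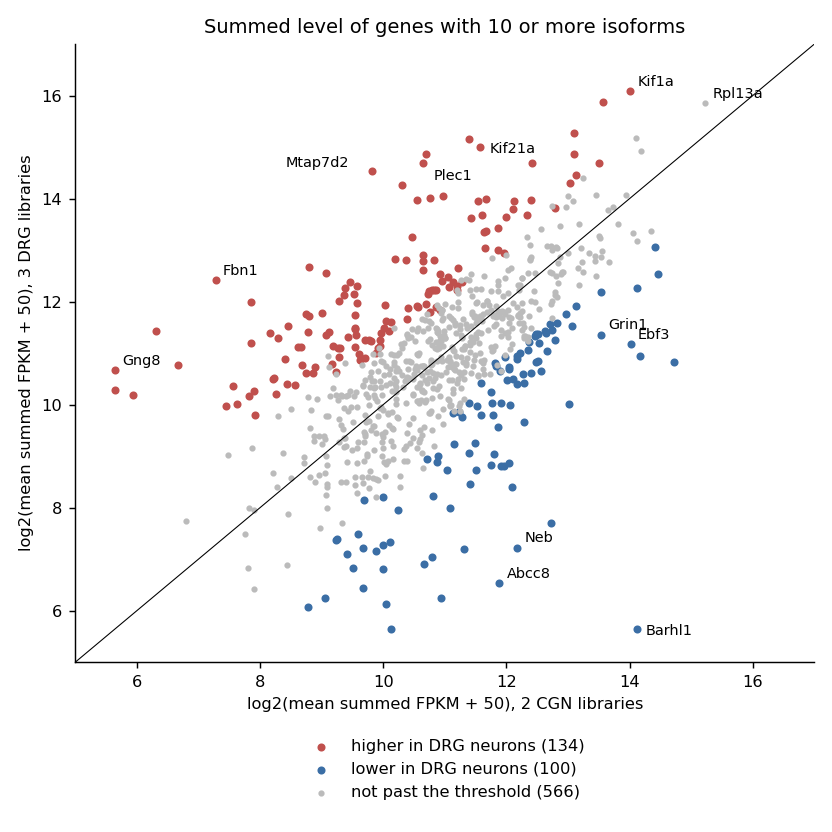
Mean summed level of the 800 genes with 10 or more isoforms, as log2(mean FPKM + 50), in the 3 DRG libraries (vertical) and the 2 CGN libraries (horizontal); colours mark genes called higher (134) or lower (100) in DRG neurons, and the line marks equal levels. Mtap7d2, Plec1 and Fbn1 lie far above the line, and Barhl1, Abcc8 and Neb far below it.

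For the groups below, the share over all genes tested was 28.4% higher and 9.22% lower in DRG neurons. Under quantile, equal total and median ratio scaling it was 17.2 to 22.4% higher and 20.7 to 26.1% lower. Among the 800 genes with 10 or more isoforms 16.75% were higher and 12.5% lower in the main fit. Under the other scalings 8.62 to 12.25% of them were higher and 37.6 to 44.4% lower. The lean to lower under those scalings was thus shared by these genes as a whole. Counts over a whole list cover genes with any number of isoforms and include the members. Of 21 genes for microtubule-associated proteins and motors, 8 rose, 2 fell and 11 did not pass. Of all 119 tested in the whole list, 48 rose and 7 fell. Mtap7d2, a MAP7 family protein that binds microtubules, had 23050.2, 31447 and 16990.3 FPKM in DRG libraries and 753 and 951 FPKM in CGN libraries, a log2 fold change of 4.69 ± 0.36 (SE, adjusted p = 3.8e-05). Kif21a, whose values stand above, rose by a log2 fold change of 3.47 ± 0.36 (SE, adjusted p = 0.00015). Kif1a, the kinesin that carries synaptic vesicle precursors along axons, had 67607, 55857 and 84927 FPKM in DRG libraries and 12997 and 19921 FPKM in CGN libraries. Its log2 fold change was 2.09 ± 0.42 (SE, adjusted p = 0.0048), and the call was lost without CGN1 when the same genes were tested. Mtap4 had 36368, 32777 and 48809.5 FPKM in DRG libraries and 7565 and 9858 FPKM in CGN libraries, a log2 fold change of 2.16 ± 0.37 (SE, adjusted p = 0.002). Mtap2, the dendritic MAP2, fell: it had 2078, 2622 and 2863 FPKM in DRG libraries and 4439.7 and 6729 FPKM in CGN libraries, a call that was lost without any 1 of DRG1, DRG2, DRG3 or CGN2. Under the other scalings 6 to 8 of the 21 were higher and 10 or 11 lower, so the balance of this group turns with the scaling. Its median log2 fold change was -0.07, against 0.59 over all genes tested.

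Of 21 genes of the actin, spectrin and ankyrin cytoskeleton, 9 rose and 3 fell, with a median log2 fold change of 0.71. Epb4.1l3, which ties spectrin and actin to membrane proteins, had 35915, 34215 and 39057 FPKM in DRG libraries and 3123 and 2184 FPKM in CGN libraries, a log2 fold change of 3.77 ± 0.33 (SE, adjusted p = 6.6e-05). Ank3 had 8591, 8669 and 17288 FPKM in DRG libraries and 11066 and 17468 FPKM in CGN libraries and did not pass. Under the other scalings 8 or 9 were higher and 3 to 5 lower. Of all 80 tested in the whole list, 27 rose and 10 fell in the main fit. Plec1, outside this list, links actin, microtubules and intermediate filaments. It had 25728, 18237 and 34833 FPKM in DRG libraries and 1169.8 and 1934 FPKM in CGN libraries, a log2 fold change of 4.03 ± 0.39 (SE, adjusted p = 0.00011).

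Of 24 chromatin regulators, 8 fell and 1 rose, with a median log2 fold change of -1.02, and under each of the other scalings 18 to 21 were lower and 0 higher. Of all 127 tested in the whole list, 23 fell and 11 rose in the main fit. Atrx, a remodeller of heterochromatin, had 1254, 1272 and 2279 FPKM in DRG libraries and 3417 and 4899 FPKM in CGN libraries, a log2 fold change of -1.38 ± 0.40 (SE, adjusted p = 0.025). Baz2b, a bromodomain protein, had 513, 926 and 1029.6 FPKM in DRG libraries and 1714 and 3158 FPKM in CGN libraries. The groups did not overlap for either gene, yet each call was lost without DRG1 and without CGN2, and that of Atrx also without DRG2. Of 27 transcription factors 6 fell and 0 rose, and under the other scalings 9 to 15 were lower and 0 higher. Of all 390 tested in the whole list, 56 fell and 26 rose in the main fit. Ebf3, a helix-loop-helix factor of developing neurons, had 1764, 1924 and 3084 FPKM in DRG libraries and 11078 and 21982 FPKM in CGN libraries, a log2 fold change of -2.81 ± 0.41 (SE, adjusted p = 0.00088). Crem had 2022, 2169 and 2705 FPKM in DRG libraries and 1138 and 1337 FPKM in CGN libraries and did not pass.

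Of 35 ion channels and transporters 4 rose and 7 fell, and under the other scalings 3 were higher and 12 or 13 lower. Of all 373 tested in the whole list, 111 rose and 52 fell in the main fit. Abcc8, the sulfonylurea receptor of ATP-sensitive potassium channels, had 66.8, 44.5 and 17.9 FPKM in DRG libraries and 3450.1 and 4004 FPKM in CGN libraries, a log2 fold change of -5.37 ± 0.57 (SE, adjusted p = 0.00017). Cacna1a, the P/Q-type calcium channel, had 3409, 3601 and 7036 FPKM in DRG libraries and 5200.1 and 5906 FPKM in CGN libraries, and Cacna1b had 3901, 4370.2 and 8400.5 FPKM in DRG libraries and 2923 and 5038 FPKM in CGN libraries. Neither channel gene passed. Of 2 transmitter receptor genes, Grin1, the obligate subunit of NMDA receptors, fell. It had 2487, 2521 and 2705 FPKM in DRG libraries and 11259 and 12323 FPKM in CGN libraries, a log2 fold change of -2.18 ± 0.30 (SE, adjusted p = 0.00072). Under the other scalings both receptor genes were lower. Of all 53 receptor genes tested in the whole list, 7 rose and 15 fell in the main fit. Of 21 synaptic release and scaffold genes 3 rose and 3 fell, and under the other scalings 1 to 3 were higher and 10 to 12 lower, so the balance of this group turns with the scaling. Of all 112 tested in the whole list, 30 rose and 13 fell in the main fit. The 3 with the most isoforms, Rims1, Magi1 and Rims2, did not pass. Rims2, an active zone scaffold, had 832, 1009 and 1324 FPKM in DRG libraries and 1149 and 1118 FPKM in CGN libraries.

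Of 14 adhesion and guidance genes 3 fell and 0 rose, and under the other scalings 6 to 8 were lower and 0 higher. Of all 160 tested in the whole list, 23 fell and 34 rose in the main fit. Lphn2 had 746, 867 and 973 FPKM in DRG libraries and 1665 and 2704 FPKM in CGN libraries, and its call was lost without DRG1, DRG2, DRG3 or CGN2. Lphn3 had 1245, 854 and 1075 FPKM in DRG libraries and 1888 and 3086 FPKM in CGN libraries, with an adjusted p of 0.051. Of 18 splicing and RNA-binding genes 2 rose and 5 fell, and under the other scalings 1 was higher and 9 to 12 lower. Of all 140 tested in the whole list, 17 rose and 21 fell in the main fit. A2bp1, now called Rbfox1, a regulator of neuronal exons, had 13467, 13726 and 16158 FPKM in DRG libraries and 5701 and 8358 FPKM in CGN libraries. Its higher call was lost without CGN1, DRG1, DRG2 or DRG3, and under every other scaling. Of 20 genes of membrane traffic and endocytosis 5 rose and 1 fell, of 17 GTPase regulators 2 rose, of 22 kinases and phosphatases 4 rose and 3 fell, and of 94 noncoding and clone-named loci 14 rose and 13 fell. Under the other scalings, fewer genes were higher than lower in each of these groups, also in membrane traffic, with 2 or 3 higher and 4 to 6 lower, among GTPase regulators, with 1 or 2 higher and 6 or 7 lower, among kinases and phosphatases, with 3 higher and 7 or 8 lower, and among noncoding and clone-named loci, with 6 to 11 higher and 27 to 31 lower. In the whole lists, 94 of 252 traffic genes rose and 11 fell in the main fit, and 34 of 137 GTPase regulators rose and 13 fell. Of 294 kinases and phosphatases 67 rose and 29 fell, and of 2020 noncoding and clone-named loci 491 rose and 215 fell. Itsn2, an endocytic scaffold, had 2772, 4449 and 2689.5 FPKM in DRG libraries and 409.8 and 384 FPKM in CGN libraries, a log2 fold change of 2.87 ± 0.41 (SE, adjusted p = 0.00086).

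Membership itself was uneven over these groups. Genes with 10 or more isoforms made up 22.8% of the actin, spectrin and ankyrin list, 18.6% of synaptic release and scaffold genes, 18.2% of chromatin regulators and 16.5% of microtubule-associated proteins and motors. They made up 3.17% of neurotransmitter receptors and 3.80% of noncoding and clone-named loci, against 5.30% of the whole table. Lists were drawn up with earlier results of these data known, and no set was tested.

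Among the largest differences in summed level outside those groups were those of Fbn1, Neb, Barhl1, Gng8 and Spatial. Fbn1, fibrillin of the extracellular matrix, had 5896, 3979 and 6379.9 FPKM in DRG libraries and 122 and 89.3 FPKM in CGN libraries, a log2 fold change of 5.12 ± 0.43 (SE, adjusted p = 5.1e-05). Neb, the giant actin-binding protein nebulin of muscle, had 57.9, 110.3 and 130.4 FPKM in DRG libraries and 4724 and 4402 FPKM in CGN libraries, a log2 fold change of -4.98 ± 0.53 (SE, adjusted p = 0.00018). Barhl1, a homeodomain factor of cerebellar granule neurons, was listed at 0 in all 3 DRG libraries and had 14129 and 21193 FPKM in CGN libraries. Gng8, a G protein gamma subunit, had 1647, 2351 and 727 FPKM in DRG libraries and was listed at 0 in both CGN libraries. Spatial was listed at 0 in all 3 DRG libraries and had 612 and 1531 FPKM in CGN libraries. Rpl13a, a ribosomal protein gene with the highest mean level of these genes, had 86530.2, 50073 and 40685 FPKM in DRG libraries and 32588 and 43942 FPKM in CGN libraries, and these did not pass.

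Isoforms were called less often than sums. Of the 10917 isoforms 5806 reached 50 FPKM in at least 2 libraries and were tested; 264 (4.55%) were higher and 378 (6.51%) lower in DRG neurons, 11.1% in all. Of all isoforms tested 14.7% were called, 9.63% higher and 5.04% lower. Of 560 reference isoforms tested 36 were higher (6.43%) and 34 lower (6.07%), against 16.3 and 4.54% of all 12057 reference isoforms tested. Of 5246 assembled isoforms 228 were higher (4.35%) and 344 lower (6.56%), against 5.87 and 5.32% of all 21530 assembled isoforms tested. The gap in the share called higher was thus smaller among assembled isoforms. The split depends on the scaling and the pseudocount. With quantile normalization 266 were higher (4.58%) and 570 lower (9.82%), against 9.1 and 9.45% of all isoforms, and with a pseudocount of 1 there were 365 higher (6.29%) and 320 lower (5.51%), against 10.4 and 4.26%. The counts also rest on few libraries. Without DRG1 55 were higher and 41 lower, 1.89% in all against 2.69% of all isoforms. Without DRG2 93 were higher and 83 lower, 3.53% against 5.07%, and without DRG3 80 were higher and 71 lower, 3.02% against 4.54%. Without CGN1 160 were higher and 9 lower, 3.47% against 6.97%, and without CGN2 230 were higher and 9 lower, 5.1% against 13.9%. With 1 CGN library left, an isoform seen only in CGNs cannot reach the level in 2 libraries that testing asks for. When the same isoforms were tested throughout, 88 were higher and 390 lower without CGN1, 8.23% against 8.35%, and 167 were higher and 399 lower without CGN2, 9.75% against 13.2%. Among 345 genes with a called isoform, 48 (13.9%) had isoforms called in both directions, against 69 of 2408 (2.87%) other genes with 2 or more isoforms; a gene with more isoforms has more chances to hold both.

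Ebf3 was such a gene. Ebf3_j12 had 0.130, 0.250 and 1.47 FPKM in DRG libraries and 3546 and 6121 FPKM in CGN libraries, a log2 fold change of -6.54 ± 0.64 (SE, adjusted p = 0.0043). Ebf3_j13 had 1.83, 0.930 and 3.98 FPKM in DRG libraries and 3117 and 6272 FPKM in CGN libraries, a log2 fold change of -6.42 ± 0.66 (SE, adjusted p = 0.0048). In the other direction, Ebf3_j3 had 506, 626 and 1375 FPKM in DRG libraries and was under 1 FPKM in both CGN libraries. Its lower confidence bound was 0 in DRG1 and DRG2 and 402 FPKM in DRG3, so which isoforms held the DRG level is uncertain. Both reference isoforms of Ebf3 also fell, and their share was 0.1, 0.0 and 0.1% in DRG libraries and 12.1 and 11.8% in CGN libraries.

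In Kif1a and Mtap4 some isoforms rose and others did not pass or fell. Kif1a_j8 had 19405, 15325 and 20029 FPKM in DRG libraries and 2022 and 2917 FPKM in CGN libraries, a log2 fold change of 2.87 ± 0.32 (SE, adjusted p = 0.0058). Kif1a_j6 had 10673, 4781 and 17069.9 FPKM in DRG libraries and 44.8 and 439 FPKM in CGN libraries, a log2 fold change of 5.48 ± 0.84 (SE, adjusted p = 0.014). The top isoform of CGNs, a reference one, had 10391, 6793 and 11594 FPKM in DRG libraries and 5833 and 9205 FPKM in CGN libraries, and did not pass. Its share of the gene was 15.4, 12.2 and 13.7% in DRG libraries and 44.9 and 46.2% in CGN libraries, a difference of -31.8 ± 7.88 percentage points (SE, adjusted p = 0.13). The 27-base exon printed for Kif1a is carried by 2 annotated transcripts and skipped by 3, and the table does not say which of these isoforms hold it. Mtap4_j4 had 7969.9, 10070.0 and 3181 FPKM in DRG libraries and was under 1 FPKM in both CGN libraries, while Mtap4_j12 fell, with 67.3, under 1 and 136 FPKM in DRG libraries and 1298 and 1434 FPKM in CGN libraries.

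Of the 5 largest rises of single isoforms, 4 were in genes of the cytoskeleton, Mtap7d2, Plec1, Mtap4 and Epb4.1l3, and the other was Adc_j9 of Adc. Mtap7d2_j13 had 7452, 10995 and 5276 FPKM in DRG libraries and 2.42 and 1.57 FPKM in CGN libraries, a log2 fold change of 7.19 ± 0.47 (SE, adjusted p = 0.0019). Of the rows named Plec1_j1, which only their transcript IDs tell apart, one had 8373, 5288 and 7296 FPKM in DRG libraries and 0.210 and 0.200 FPKM in CGN libraries, a log2 fold change of 7.11 ± 0.42 (SE, adjusted p = 0.0018). Epb4.1l3_j19 had 10687, 4221 and 11809.6 FPKM in DRG libraries and 35.2 and 0.500 FPKM in CGN libraries, a log2 fold change of 6.96 ± 0.59 (SE, adjusted p = 0.0033). In Plec1 10 of 19 tested isoforms rose and 0 fell, and in Mtap7d2 7 of 14 rose and 0 fell.

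Some genes with no call in their sum, or with one that a single library decided, still held called isoforms. Cacna1a_j15 had 1234, 1308 and 2683 FPKM in DRG libraries and 363 and 399.8 FPKM in CGN libraries, a log2 fold change of 1.97 ± 0.50 (SE, adjusted p = 0.048). Cacna1a_j14 had 40.4, under 1 and 75.3 FPKM in DRG libraries and 879 and 1178 FPKM in CGN libraries, a log2 fold change of -3.69 ± 0.76 (SE, adjusted p = 0.029). Of the 20 tested isoforms of Ank3 1 was called, Ank3_j14, which was under 1 FPKM in all 3 DRG libraries and had 1148 and 3144 FPKM in CGN libraries. A2bp1_j13 had 1706, 2784 and 1967 FPKM in DRG libraries and 0.910 and 0.270 FPKM in CGN libraries, a log2 fold change of 5.41 ± 0.53 (SE, adjusted p = 0.0043).

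The labels were checked against defining markers, summed over each list. Sensory neuron markers were higher in every DRG library than in any CGN library for 7 of 7 genes of the table, with sums of 549987, 506981 and 387024 FPKM in DRG libraries and 673 and 680 FPKM in CGN libraries. Granule neuron markers were lower for 8 of 8 genes, with 8247, 4676 and 9840 FPKM in DRG libraries and 192077 and 290183 FPKM in CGN libraries. Other cells moved with the groups too. Fibroblast markers were higher for 4 of 5 genes, with 57230, 29043 and 62008 FPKM in DRG libraries and 1799 and 4626 FPKM in CGN libraries. Schwann and satellite glia markers were higher for 5 of 5 genes, with 62934, 40885 and 72396 FPKM in DRG libraries and 17850 and 17773 FPKM in CGN libraries. Cerebellar glia markers were lower for 5 of 5 genes, with 947, 629 and 963 FPKM in DRG libraries and 13968 and 29183 FPKM in CGN libraries. Macrophage and microglia markers were lower for 3 of 4 genes, with 598, 1074 and 286 FPKM in DRG libraries and 3707 and 5845 FPKM in CGN libraries. By the paper's count of neuronal tubulin against nuclei, part of the cells in the DRG cultures were not neurons. A call in DRG neurons therefore describes the whole culture. The part of these other cells in the results on Fbn1, Plec1 and the other genes was not tested. Among the members, Col1a1, a collagen of fibroblasts, had 32250.0, 14972 and 42665 FPKM in DRG libraries and 888 and 2326 FPKM in CGN libraries, and Mbp, a myelin protein, had 24601, 12711 and 27508 FPKM in DRG libraries and 9292 and 10007 FPKM in CGN libraries. Read depth is not part of the isoform table, so the counting error behind each value is unknown. A value of 0 is not evidence of absence, since Rps13, a ribosomal protein gene that every cell uses, was listed at 0 in all 5 libraries.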

How the data were processed

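Polyadenylated RNA of 3 DRG and 2 CGN cultures was sequenced. Alignment to mm9 by the authors used TopHat, transcripts were built by Cufflinks and merged by Cuffcompare, and the deposited FPKM of each library came from Cuffdiff with upper-quartile normalization. These values are normalized to transcript length and library, not counts, so read depth cannot be recovered from them. Levels of isoforms with overlapping exons are model estimates from shared short reads, and one isoform's level can be traded for another's. Lower confidence bounds were also deposited and were used to judge which values were reliable. The pooled FPKM of each cell type and the authors' fold changes, p-values and test status were not used.

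Isoforms were grouped by symbol, and genes with at least 10 were kept. Levels were tested in R 4.3.3 with limma 3.58.1 (empirical Bayes with trend) on log2(FPKM + 50), for isoforms and for summed genes with at least 50 FPKM in at least 2 libraries. Shares were tested in percent, for genes with a summed level of at least 50 FPKM in every library. P-values were adjusted by Benjamini-Hochberg over the whole table and called under 0.05. The fits were first tested on simulated data. Other scalings, pseudocounts, filters, thresholds and left-out libraries were tried. Shares, summaries and plots came from Python 3.11.15 with numpy 2.4.6, pandas 2.3.3 and matplotlib 3.10.9, and short exons were read from GENCODE M1 on NCBIM37.

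Genes were named by the number of isoforms (the 8 highest, and up to 3 in each list), by the largest differences in top share and reference share without overlap, by the 5 highest and lowest top shares, by the 5 highest sums, and by the 5 largest called fold changes of genes and isoforms in each direction. Not all of them are described, and a gene and an additive of the DRG medium are not reported here. Chd2 and Golgb1 were picked among these for their steadiness, and Col1a1 and Mbp as markers. The members, lists and tests were chosen with earlier results of these data known, and wrongly matched names were removed from the lists.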

Additional observations from a re-analysis of the deposited data

How the results depend on the processing

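Calls on the makeup of genes rest on the model of the spread. The top share gave 0 calls in every alternative run. The reference share gave 6 calls on a logit scale (1.2% of genes with 10 or more isoforms, against 1.24% of all genes tested), 12 without the trend (2.4 against 2.61%), 2 with no filter on low sums (0.385 against 1.0%), 14 with sums of at least 500 FPKM (3.55 against 3.18%), 9 with isoforms whose lower bound is 0 set to 0 (1.95 against 3.29%), and 0 to 19 with 1 library left out. The isoform share gave 30 without the trend (0.928 against 1.45%), 3 with sums of at least 500 FPKM (0.119 against 0.61%) and 46 with the lower bound (1.59 against 1.88%). For summed levels, calls numbered 400 with quantile normalization (50% against 43.5% of all genes). With equal totals they numbered 424 (69 higher and 355 lower, 8.62 and 44.4% against 17.2 and 26.1%). With median ratio scaling they numbered 399 (98 higher and 301 lower, 12.25 and 37.6% against 21.8 and 20.7%). In the main fit, which called 37.7% of all genes, 418 genes with at least 8 isoforms and 137 with at least 12 were called. These cutoffs change how many genes are counted, so the counts alone do not show a change in the share called. Without 1 DRG library 24.2 to 26.7% of the genes with 10 or more isoforms were called, against 34.7 to 37.5% of all genes. Calls numbered 179 to 231 with any 1 library left out, and 113 without CGN1 with the genes fixed. For isoforms they numbered 96 to 239 with 1 library left out, and the split was 217 higher and 717 lower with equal totals (3.74 and 12.3%, against 7.51 and 11.9%) and 247 and 585 with median ratio scaling (4.25 and 10.1%, against 9.84 and 8.67%). A fit with the replicate number as a block gave 145 calls for summed levels (18.1 against 26.2% of all genes) and 874 for isoforms (15.1 against 15.3%). Of 37 genes chosen by the naming rule and called in their sum, 14 lost that call with the block, among them A2bp1, Atrx, Baz2b, Kif1a, Lphn2, Mtap2 and Mtap4. Deviations of same-numbered cultures from the mean of their cell type had r of -0.02 and 0.01 over summed genes. With 2 CGN libraries their deviations mirror each other, so these values cannot show whether the numbers pair cultures. Shared preparation or sequencing batches were not tested. The block changed no call on shares.

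The median top share over libraries, 39.7%, became 42.5% with the lower bound, 37.9% with sums of at least 500 FPKM, and 43.2 and 37.5% for genes with at least 8 and at least 12 isoforms, and stayed at 39.4 to 40.1% with 1 library left out. Isoforms over 5% numbered 4 in the median gene and those over 20% 2. The median assembled share, 90.9%, was 88.9% with sums of at least 500 FPKM and 86.3 and 93.0% for genes with at least 8 and at least 12 isoforms. The same top isoform in all libraries was found in 120 genes with at least 8 isoforms. Makeups farther apart between than within cell types were found in 137 and 47 genes with at least 8 and at least 12 isoforms, and in 141 to 184 when 1 library, and with it several pairs, was left out. No share over all genes was computed for these settings.

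Chosen after the data were seen, leaving out genes on shared loci gave 423 called isoforms, 144 called sums, a median top share of 37.8%, 17 genes with 1 top isoform and 38 with separate makeups. Fewer genes were then counted, and the share over all genes without shared loci was not computed. With 1 CGN library left, it was assumed to vary like the DRG libraries. The small number of cultures and unknown read depth limit all of these calls.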
